A study of Mus musculus with 6 samples.

Results

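The genes described here encode the proteasome and its closest helpers in 4T1 cells, a mouse mammary carcinoma line often studied as triple-negative disease. Members were taken by symbol from the 28418 genes of the deposited tables. They are the protein-coding genes whose symbol is Psm followed by a letter from a to g and a number, without the inducible subunits Psmb8, Psmb9 and Psmb10, and with an average level of 1 FPKM or more across all 6 libraries. FPKM is a fragment count scaled for transcript length and for library size. Of 47 such genes 45 passed the level filter, and 31 of the 45 encode subunits of the 26S proteasome. The pattern also took Psmc3ip, a meiotic recombination factor named for binding Psmc3, which is not a known part of the proteasome and is given apart.

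Poly(A) RNA was sequenced from 3 libraries of 4T1 cells kept with 100 nM PFOS and from 3 libraries of 4T1 cells kept with 0 nM PFOS, all after 35 passages. PFOS, perfluorooctane sulfonate, is a persistent fluorinated surfactant. Both groups are the same cell line with no other agent or allele named, and the labels do not say whether the 0 nM cells received a solvent. Whether the 3 libraries of a group are separate cultures is not stated, and the p-values therefore rest on a spread that may be technical.

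The proteasome is the main protease of the cytosol and nucleus and degrades proteins tagged with ubiquitin. Its 20S core is a barrel of alpha rings, which form a gate, and beta rings, in which Psmb5, Psmb6 and Psmb7 carry the active sites. The 19S particle caps the barrel: a base with a ring of ATPases unfolds the substrate, and a lid removes the ubiquitin chain. The subunits are assembled in fixed proportions, and in mammals the transcription factor NRF1, encoded by Nfe2l1, raises the transcription of proteasome genes together when proteasome activity falls.

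All libraries had the epithelial markers Krt8, Krt18, Epcam and Cdh1, at a summed level of 671 to 716 FPKM at 100 nM and 646 to 647 FPKM at 0 nM. Cdh1, the E-cadherin gene, rose at 100 nM (66.2 ± 1.59 FPKM at 100 nM and 54.1 ± 0.271 FPKM at 0 nM, SD, n = 3 each, adjusted p = 0.00323 by limma), and whether this marker shift bears on the members was not tested. The files give no read totals, and the FPKM values of a library sum to 306735 to 309381 at 100 nM and to 306716 to 308830 at 0 nM. Replicate 3 at 100 nM stood apart from the other 5 libraries, with a score of 19.4 on the first principal component against -9.57 to 0.06. It held the T cell transcripts Gzmb and Cd3e at 14.94 and 0.66 FPKM, where the other 5 were at no more than 0.05 FPKM. The 8 leukocyte markers summed to 126 to 274 FPKM at 100 nM and 124 to 163 FPKM at 0 nM, with Lyz2 the most abundant. The 8 interferon response genes reached 101 FPKM in replicate 3 at 100 nM; the other 100 nM libraries had 27.0 and 18.3 FPKM, and the 0 nM libraries 15.6 to 22.4 FPKM. The 4 fibroblast markers summed to 2.56 to 4.56 FPKM at 100 nM and 1.58 to 1.95 FPKM at 0 nM, and the 3 endothelial markers to at most 0.39 FPKM in any library.

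The proteasome genes differed little between the groups. Of the 45 members 1 fell at 100 nM PFOS, Psmd2, a scaffold subunit of the 19S base, and 0 rose (limma on log2(FPKM + 1) with Benjamini-Hochberg adjustment over 11741 genes, called at an adjusted p under 0.05). Psmd2 stood at 110 ± 0.875 FPKM at 100 nM and 123 ± 1.34 FPKM at 0 nM (SD, n = 3 each). Over all tested genes 4.15% were called, 2.46% lower and 1.69% higher, so a share of 2.22% of the members is not above the background. At an unadjusted p under 0.05 there were 6 members (13.3%), against 20.7% of all tested genes. The groups did not overlap for 9 members (20%), 4 higher and 5 lower at 100 nM, against 26.9% of all tested genes, 13.7% higher and 13.3% lower. In bulk RNA, fewer cells of a type and less RNA per cell cannot be told apart.

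Differences on the log2(FPKM + 1) scale, 100 nM minus 0 nM, ran from -0.16 for Psmd2 to 0.21 for Psmg4, with a median of 0.01, and the median over all tested genes was also 0.01. Ratios of mean FPKM lay between 0.896 and 1.16. The median absolute difference was 0.04 for the members, 0.06 for all tested genes and 0.05 for those with a mean of at least 5 FPKM. The 95% interval lay within a 1.2-fold change either way for 42 of the 45 members (93.3%), including all 31 that encode 26S subunits. The same held for 73.5% of all tested genes and for 84.7% of the 7431 with a mean of at least 5 FPKM. The 3 members with wider intervals were Psmg3, Psmg4 and Psme2b, all below 20 FPKM in mean level.

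**Figure D1:**
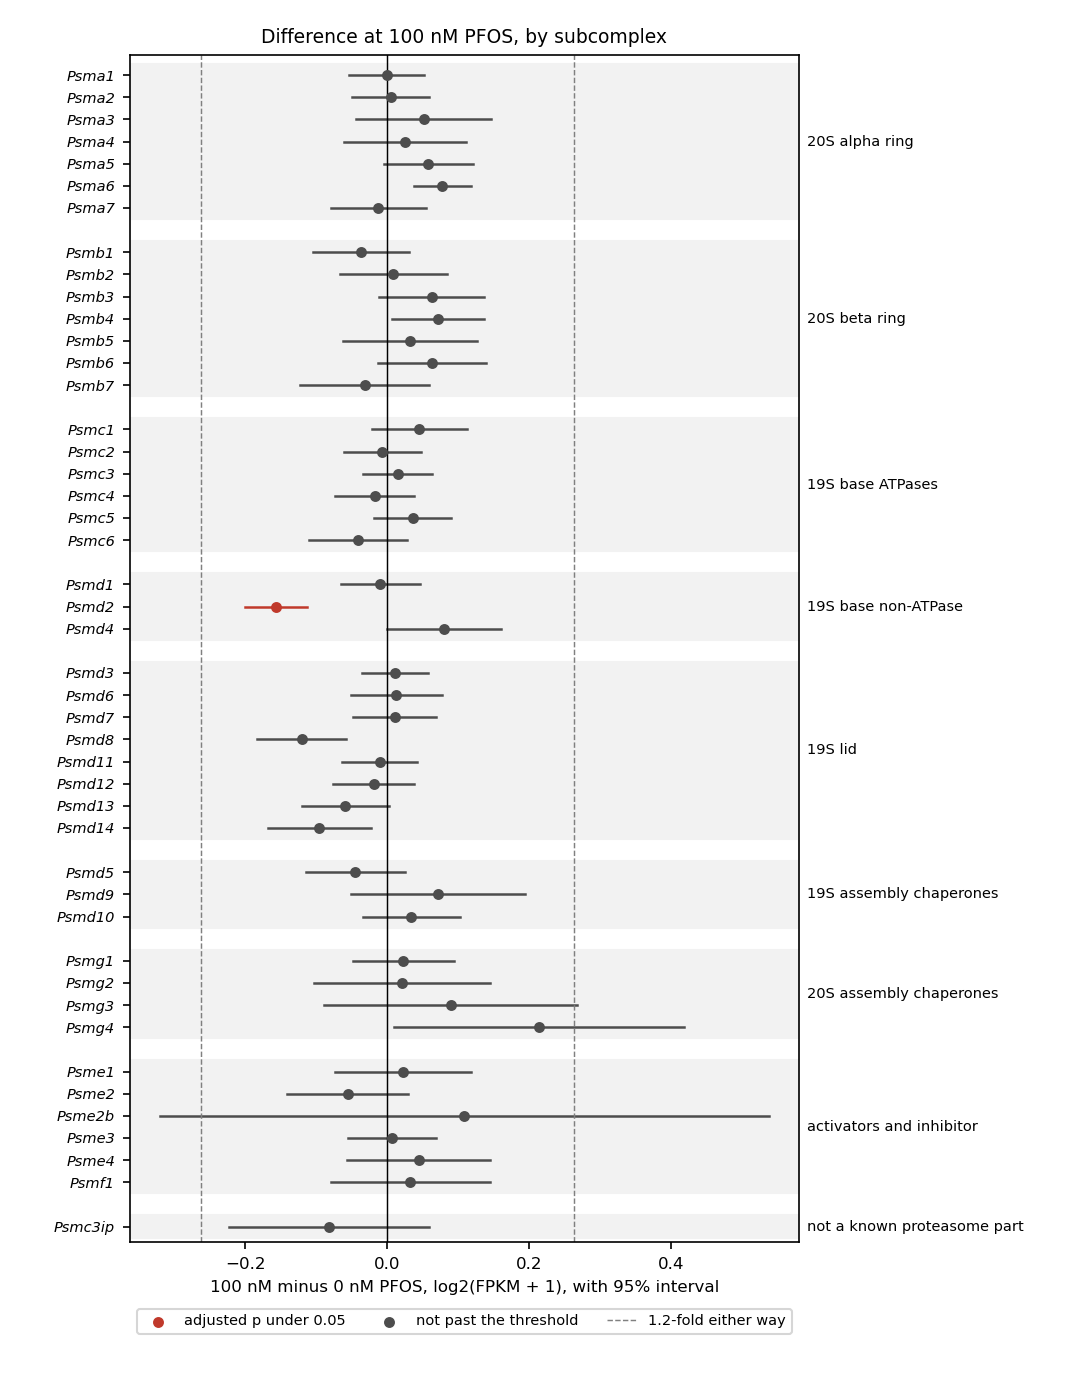
Difference of each member at 100 nM minus 0 nM PFOS on the log2(FPKM + 1) scale (horizontal axis), with its 95% interval as a line, grouped by subcomplex; red marks the member past the adjusted p threshold and dashed lines mark 1.2-fold either way. Psmd2, at -0.16, is the member called, and the interval of Psme2b, from -0.32 to 0.54, is the widest.

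The 20S alpha ring genes encode the outer rings of the barrel. None of the 7 passed the test, 5 had a higher mean at 100 nM, and the median difference was 0.02. Psma6, the alpha-1 subunit, had the highest level of all members. Its FPKM values were 172.93, 176.16 and 176.16 at 100 nM, against 165.83, 165.86 and 165.80 at 0 nM. The groups did not overlap, and its 0 nM values were nearly the same in the 3 libraries. The difference of Psma6 was 0.08 ± 0.02 (SE), with an adjusted p of 0.0556, and it was called in 2 of 18 alternative fits, at adjusted p = 0.0456 among genes of at least 5 FPKM and 0.0419 among protein-coding genes. Psma5, the alpha-5 subunit, averaged 113 ± 3.49 FPKM at 100 nM and 108 ± 0.909 FPKM at 0 nM (SD, n = 3 each). Its groups overlapped (adjusted p = 0.274). The lowest difference of the ring, -0.01, was that of Psma7, the alpha-4 subunit, at 87.52, 91.67 and 85.67 FPKM at 100 nM and 88.10, 89.55 and 89.39 FPKM at 0 nM. Psma1, Psma2 and Psma4 had differences between -0.00 and 0.02, and Psma3 one of 0.05.

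The beta ring genes showed the same narrow range. None of 7 passed the test, 5 had a higher mean at 100 nM, and the median difference was 0.03. Psmb5, the chymotrypsin-like active site and the main target of proteasome inhibitor drugs, had 79.75, 85.11 and 86.02 FPKM at 100 nM and 85.02, 81.35 and 78.90 FPKM at 0 nM. These values overlapped, and the difference was 0.03 with a 95% interval of -0.06 to 0.13. Psmb6, the caspase-like site, had 55.24, 57.67 and 59.49 FPKM at 100 nM, against 54.20, 56.12 and 54.55 FPKM at 0 nM. One library of each group lay inside the range of the other, and the interval of its difference was -0.01 to 0.14. Psmb7, the trypsin-like site, had 43.03, 40.70 and 40.17 FPKM at 100 nM, against 42.05, 43.93 and 40.74 FPKM at 0 nM. These values overlapped too, with an interval of -0.12 to 0.06. The ends of the beta ring were Psmb4, the beta-7 subunit, at 110 ± 3.07 FPKM at 100 nM and 105 ± 2.08 FPKM at 0 nM, and Psmb1, the beta-6 subunit, at 45.2 ± 1.42 FPKM at 100 nM and 46.4 ± 0.621 FPKM at 0 nM (SD, n = 3 each). The groups did not overlap for Psmb4 or for Psmb3, and their adjusted p-values were 0.202 and 0.312. For Psmb3 the gap was very small, with a lowest value of 45.85 FPKM at 100 nM and a highest of 45.83 FPKM at 0 nM. The thymus subunit gene Psmb11 and the testis subunit gene Psma8, the members of the pattern below the level filter, were listed at no more than 0.02 and 0.10 FPKM in any library.

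Among the 6 ATPases of the 19S base, 3 had a higher and 3 a lower mean at 100 nM, and none passed the test. The median difference was 0.00, and no ATPase had groups that did not overlap. Psmc1, also known as Rpt2, which docks its tail in the alpha ring to open the gate, was at the top with 133.64, 128.40 and 131.32 FPKM at 100 nM, against 123.75, 131.26 and 126.15 FPKM at 0 nM. Its groups overlapped by 1 library of each (adjusted p = 0.421). At the bottom was Psmc6, or Rpt4, with 60.37, 57.31 and 56.34 FPKM at 100 nM, against 59.42, 59.73 and 59.93 FPKM at 0 nM (adjusted p = 0.481).

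The rest of the base held the only call. Psmd2, or Rpn1 (ENSMUSG00000006998, GRCm38 chr16:20651652-20663414), binds ubiquitin chains, shuttle proteins and the deubiquitinase Usp14. It had 108.98, 110.31 and 110.63 FPKM at 100 nM, against 124.03, 121.35 and 122.75 FPKM at 0 nM. Every 100 nM library lay below every 0 nM library, and the ratio of means was 0.896. Its log2(FPKM + 1) difference was -0.16 ± 0.02 (SE), with an adjusted p of 0.00907 and a 95% interval of -0.20 to -0.11. Over 18 alternatives the difference stayed between -0.16 and -0.15 and the adjusted p between 0.00556 and 0.0798. It no longer passed in 3 of them. These were the fits without replicate 1 at 0 nM (adjusted p = 0.0507) and without replicate 3 of both groups (adjusted p = 0.0798). The 3rd kept all libraries and added a term for replicate number (adjusted p = 0.0772). Without replicate 3 at 100 nM, the library that stood apart, the difference was -0.16 with an adjusted p of 0.0221.

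Psmd1, or Rpn2, the other large scaffold of the base, was close to level. Its values were 37.75, 37.04 and 36.92 FPKM at 100 nM, against 36.70, 37.90 and 37.87 FPKM at 0 nM, and its difference was -0.01 (95% interval -0.07 to 0.05). The ratio of Psmd2 to Psmd1 in FPKM was therefore lower, at 2.89, 2.98 and 3.00 at 100 nM and 3.38, 3.20 and 3.24 at 0 nM. That ratio restates the call of Psmd2, which was chosen for its values, and is not separate evidence. Psmd4, or Rpn10, a ubiquitin receptor between base and lid, had 62.04, 67.77 and 65.22 FPKM at 100 nM, against 60.77, 61.59 and 61.90 FPKM at 0 nM. Its groups did not overlap, with a smallest gap of less than 1 FPKM, and its adjusted p was 0.244.

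The lid genes were close to evenly split between lower and higher. In this group of 8, 5 were lower and 3 higher on average at 100 nM, none passed the test, and the median difference was -0.01. Psmd8, or Rpn12, which in yeast joins last when the lid is assembled, had 81.55, 81.04 and 84.06 FPKM at 100 nM, against 87.24, 89.44 and 91.71 FPKM at 0 nM. All its 100 nM values were below all its 0 nM values, with a difference of -0.12 ± 0.03 (SE) and an adjusted p of 0.0576. It was called in 4 of 18 alternatives, at adjusted p = 0.0417 to 0.0499. Psmd14, or Rpn11, the metalloprotease that cuts the ubiquitin chain off the substrate, had 39.51, 39.30 and 40.02 FPKM at 100 nM, against 43.93, 40.81 and 42.48 FPKM at 0 nM. It did not overlap between the groups and did not pass (adjusted p = 0.142). Psmd13, or Rpn9, was the other lid gene whose groups did not overlap, at 35.5 ± 0.735 FPKM at 100 nM and 37.1 ± 0.684 FPKM at 0 nM (SD, n = 3 each, adjusted p = 0.257). Its nearest values were 36.26 FPKM at 100 nM and 36.33 FPKM at 0 nM. The highest difference in the lid was 0.01, that of Psmd6, or Rpn7, at 42.0 ± 0.604 FPKM at 100 nM and 41.6 ± 1.15 FPKM at 0 nM (SD, n = 3 each). Psmd3, Psmd7, Psmd11 and Psmd12 had differences of -0.02 to 0.01.

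Upstream sequence of Psmd2, Psmd8 and Psma6, the members with the smallest p-values, is shown to let the called gene be compared with the next ranked ones. Sequences are the 250 bases before the transcription start in RefSeq on GRCm38.p6, 5′ to 3′ on the strand of the gene. Capitals mark CCAAT, the letters bound by the factor NF-Y, on either strand.
Psmd2, chr16:20651402-20651651, plus strand: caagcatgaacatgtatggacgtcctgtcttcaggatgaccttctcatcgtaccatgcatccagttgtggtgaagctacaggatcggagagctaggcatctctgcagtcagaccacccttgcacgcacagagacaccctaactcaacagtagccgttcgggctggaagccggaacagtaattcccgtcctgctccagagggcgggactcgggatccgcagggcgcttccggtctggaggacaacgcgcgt
Psmd8, chr7:29180674-29180923, minus strand: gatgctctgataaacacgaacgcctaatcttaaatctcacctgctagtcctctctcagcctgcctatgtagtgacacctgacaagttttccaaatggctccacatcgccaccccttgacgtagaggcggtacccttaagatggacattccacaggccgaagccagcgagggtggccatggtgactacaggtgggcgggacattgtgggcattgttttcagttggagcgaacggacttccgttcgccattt
Psma6, chr12:55383972-55384221, plus strand: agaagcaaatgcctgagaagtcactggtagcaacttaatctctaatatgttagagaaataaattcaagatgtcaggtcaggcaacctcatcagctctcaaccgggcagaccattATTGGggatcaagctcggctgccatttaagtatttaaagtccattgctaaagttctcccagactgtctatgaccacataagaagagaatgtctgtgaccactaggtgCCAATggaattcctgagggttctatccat
The first 2 hold no CCAAT, and Psma6 holds it once on each strand. RefSeq lists a second start for Psma6, whose upstream 250 bases hold none. In windows running from 250 bases before to 50 after a start, CCAAT on either strand was found in 13 of 41 windows of members (31.7%), against 37.4% of all 32851 windows. The table gave windows for 38 of the 45 members, not for Psmb1, Psmb2, Psmb7, Psmc3, Psmd3, Psmd7 and Psmg2.

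**Figure D2:**
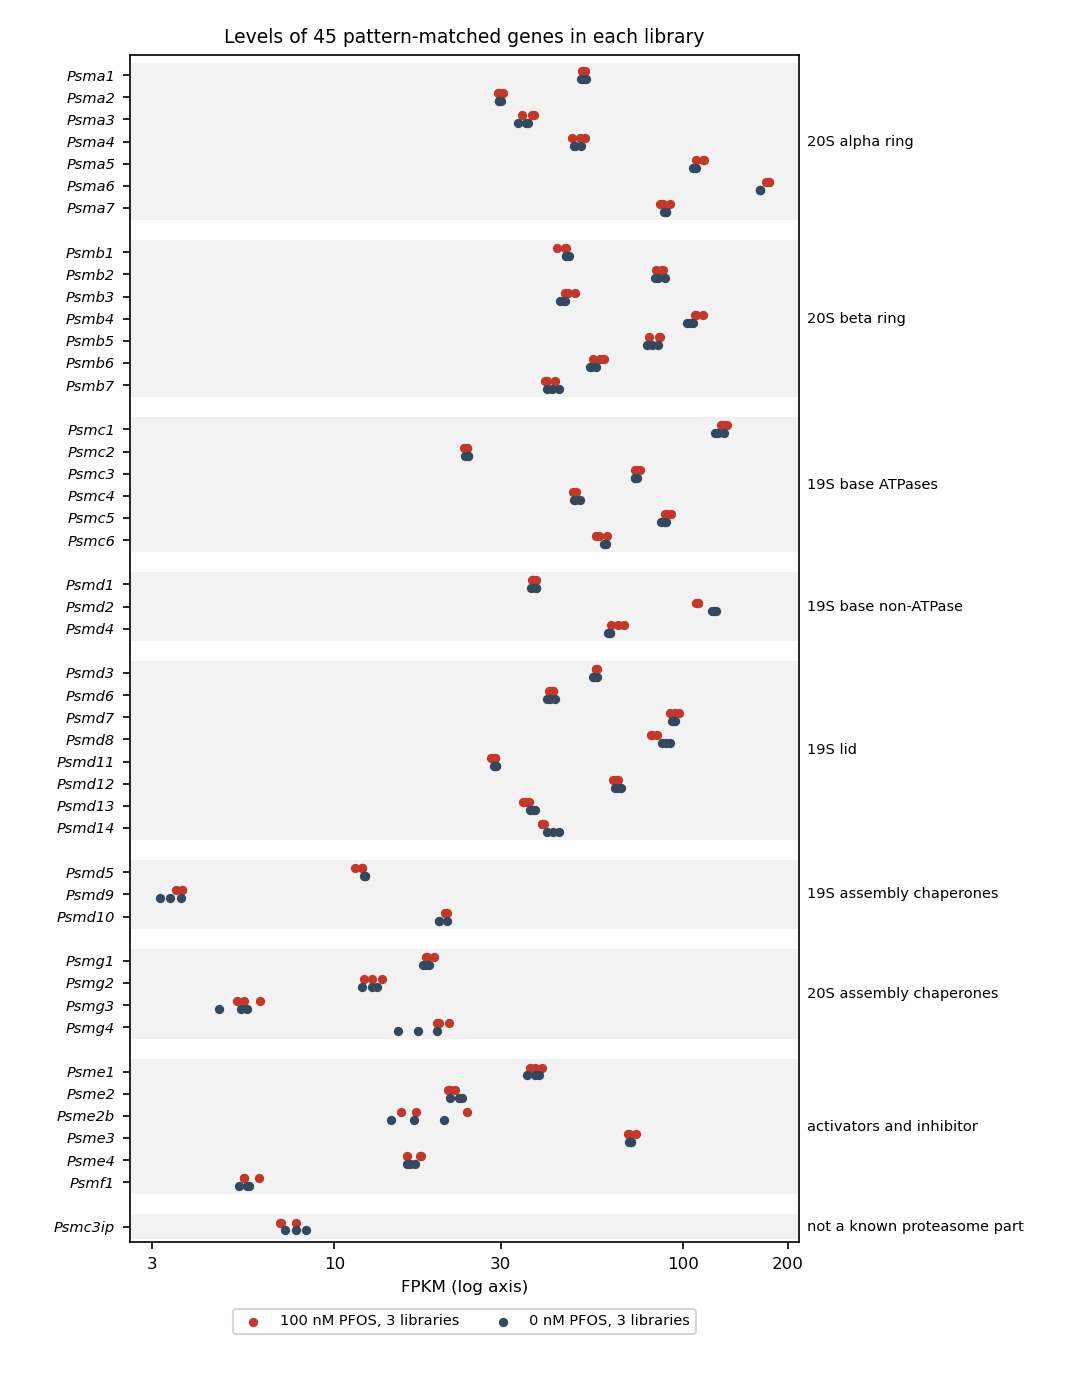
FPKM of each member in each library on a log axis, with the 3 libraries at 100 nM PFOS in red above the 3 at 0 nM PFOS in dark blue, grouped by subcomplex. The members that encode 26S subunits run from Psmc2 at about 24 FPKM to Psma6 at about 170 FPKM. The points of the 2 groups lie close together in every row.

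Levels per transcript length differed between subunits far more than between groups. Mean FPKM over the 6 libraries was compared for the 31 members that encode 26S subunits. It ran from 23.9 for Psmc2, or Rpt1, to 170 for Psma6, a ratio of 7.12, with a median of 56.2. After Psma6 came Psmc1 at 129 FPKM, Psmd2 at 116 FPKM, Psma5 at 110 FPKM and Psmb4 at 108 FPKM. Psma5 and Psmb4 had ranges that overlapped, and Psmc5 at 89.2 FPKM overlapped both Psmd7 at 94.2 FPKM and Psma7 at 88.7 FPKM, which did not overlap each other. The active-site subunits held ranks 11, 16 and 24 of 31, with 82.7 FPKM for Psmb5, 56.2 FPKM for Psmb6 and 41.8 FPKM for Psmb7. Assembly factors were lower, from 3.50 FPKM for Psmd9 to 20.6 FPKM for Psmd10. The members together made up 0.767% to 0.772% of all FPKM at 100 nM and 0.763% to 0.766% at 0 nM. Mitochondrial genes made up 9.84% to 10.2% at 100 nM and 10.4% to 10.8% at 0 nM. Whether that shift bears on the share or the summed levels of the members was not tested.

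The summed level of the core was slightly higher at 100 nM and that of the cap slightly lower. The ratios of the mean sums, 100 nM over 0 nM, were 1.03 and 0.986. The 14 genes of the 20S core summed to 1008, 1019 and 1019 FPKM at 100 nM, against 984, 994 and 992 FPKM at 0 nM. The sums for the 19S particle cover its 17 members and leave out the subunit genes Adrm1 and Sem1, whose symbols fall outside the pattern. These sums were 1081, 1087 and 1076 FPKM at 100 nM, against 1095, 1099 and 1098 FPKM at 0 nM. Neither sum overlapped between the groups. Of all tested genes 26.9% did not overlap either, and sums over other gene sets were not made for comparison. The ratio of core to cap was 0.933, 0.938 and 0.947 at 100 nM, against 0.899, 0.905 and 0.903 at 0 nM. The lower cap sum rested on Psmd2: without it the other 16 genes summed to 972, 977 and 966 FPKM at 100 nM, against 971, 977 and 976 FPKM at 0 nM, which overlap. Without Psmd2 and Psmd8 the remaining 15 summed to 889 ± 7.18 FPKM at 100 nM and 885 ± 2.36 FPKM at 0 nM (SD, n = 3 each), so the order of the means turned. The core without Psma6 still did not overlap, at 835 to 843 FPKM at 100 nM and 819 to 828 FPKM at 0 nM. Without Psmd2 the ratio was 1.04, 1.04 and 1.06 at 100 nM, against 1.01, 1.02 and 1.02 at 0 nM. Without Psmd2, Psmd8 and Psma6 it was 0.938, 0.941 and 0.956 at 100 nM, against 0.927, 0.933 and 0.934 at 0 nM, which still did not overlap. The choice of these 3 genes followed from their values, the sums weight each gene by its level, and no test was made of the ratio. The sum over all 31 genes overlapped, at 2089 to 2106 FPKM at 100 nM and 2079 to 2092 FPKM at 0 nM. Replicate 3 at 100 nM, the library that stood apart, had the highest ratio of the 6.

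**Figure D3:**
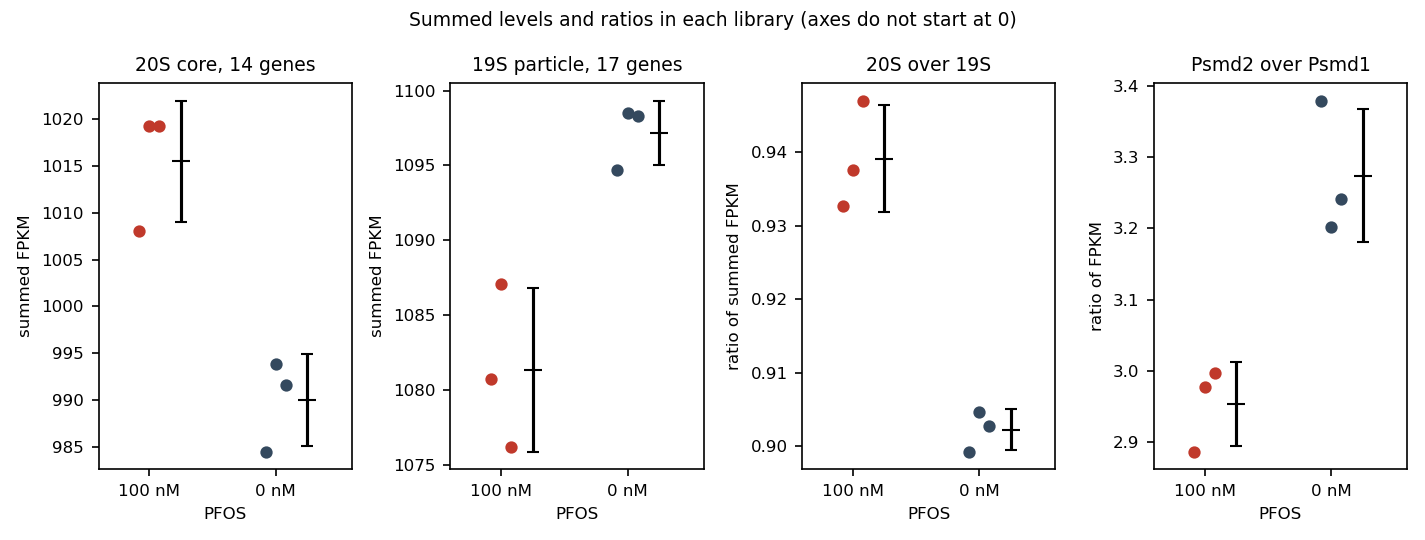
Summed FPKM of the 20S core members (14) and 19S particle members (17), the ratio of these sums, and the ratio of Psmd2 to Psmd1. Each library is a point, with 100 nM PFOS at the left of 0 nM PFOS and the mean ± SD (n = 3) beside the points. The axes do not start at 0. The groups are apart in all 4 panels, with the core over cap ratio at 0.933 to 0.947 at 100 nM and 0.899 to 0.905 at 0 nM. Psmd2 enters every panel but that of the core, and the core over cap ratio is made from the sums. The panels are therefore not separate evidence.

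Assembly of the core and cap needs dedicated chaperones. All 4 core chaperone genes, Psmg1 to Psmg4, had a higher mean at 100 nM, and none passed the test. Psmg4, whose protein pairs with that of Psmg3 to build the alpha ring, had 19.91, 19.69 and 21.27 FPKM at 100 nM, against 15.26, 19.72 and 17.32 FPKM at 0 nM. It had the highest difference of all members, 0.21 ± 0.09 (SE), but the groups overlapped, as 0 nM replicate 2 matched the 100 nM values (adjusted p = 0.223). Psmg2, the partner of Psmg1, had the lowest difference of the group, 0.02, with 12.82, 13.67 and 12.13 FPKM at 100 nM, against 13.22, 12.02 and 12.78 FPKM at 0 nM. Of the 3 cap chaperones, Psmd9, or p27, had 3.61 ± 0.0839 FPKM at 100 nM and 3.39 ± 0.235 FPKM at 0 nM, while Psmd5, or S5b, had 11.8 ± 0.333 FPKM at 100 nM and 12.2 ± 0.0451 FPKM at 0 nM (SD, n = 3 each). Psmd5 did not overlap between the groups but did not pass (adjusted p = 0.443). Psmc3ip, the recombination factor, averaged 7.25 ± 0.430 FPKM at 100 nM and 7.74 ± 0.540 FPKM at 0 nM (SD, n = 3 each; adjusted p = 0.493).

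Other caps and an inhibitor can replace the 19S particle on the core. Psme1 and Psme2 encode the interferon-inducible PA28 activator. Psme1 had 37.68, 36.48 and 39.46 FPKM at 100 nM, against 35.67, 38.56 and 37.64 FPKM at 0 nM, and Psme2 had 21.52, 22.14 and 21.19 FPKM at 100 nM, against 22.84, 21.49 and 23.22 FPKM at 0 nM. Both overlapped, and their differences were 0.02 (95% interval -0.07 to 0.12) and -0.06 (95% interval -0.14 to 0.03). Psme2b, a copy of Psme2 on chromosome 11, had the widest interval of all members, with 15.57, 17.16 and 23.99 FPKM at 100 nM, against 16.86, 20.67 and 14.49 FPKM at 0 nM. Its highest value was in replicate 3 at 100 nM. Psme3, a nuclear activator, and Psme4, which encodes PA200, had differences of 0.01 and 0.04. Psmf1, the PI31 inhibitor gene, stood at 5.70 ± 0.318 FPKM at 100 nM and 5.55 ± 0.202 FPKM at 0 nM (SD, n = 3 each).

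In immune cells, and in other cells under interferon, Psmb8, Psmb9 and Psmb10 replace the constitutive active sites. Psmb8 had 10.81, 9.76 and 14.57 FPKM at 100 nM and 11.05, 10.61 and 12.32 FPKM at 0 nM, and Psmb9 had 1.82, 1.67 and 3.30 FPKM at 100 nM and 1.59, 1.44 and 2.05 FPKM at 0 nM. Psmb10 had 23.52, 22.17 and 26.43 FPKM at 100 nM and 22.42, 21.68 and 23.81 FPKM at 0 nM. All 3 were highest in replicate 3 at 100 nM, which also had the highest interferon and leukocyte sums, whose part in these values was not tested. None passed the test (adjusted p = 0.518 to 0.932).

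Position on the chromosome was examined because stretches of neighbouring genes moved together in these libraries. For each member, the differences of the other tested protein-coding genes whose start lay within 2.5 Mb were taken. Psmd2 lay in a lower stretch of chromosome 16: of 39 neighbours 36 were lower at 100 nM, 10 of them past the test, with a median difference of -0.13. The difference of Psmd2, -0.16, was thus within 0.03 of that median, and 13 neighbours were lower still. Eif4g1, a translation initiation factor gene starting 0.017 Mb away and chosen after its values were seen, had 131 FPKM at 100 nM and 144 FPKM at 0 nM in mean, a difference of -0.13 (adjusted p = 0.0255). Psmg2 lay in a lower stretch of chromosome 18, where 19 of 20 neighbours were lower with a median of -0.16, but its own difference was 0.02, above 19 of the 20. The neighbours of the other 43 members had medians of -0.05 to 0.09. Psmb4 and Psmd4, both on chromosome 3, shared a neighbourhood with a median of 0.05. Psmd8, Psma6 and Psmg4 had neighbourhood medians of -0.00, 0.01 and -0.01.

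**Figure D4:**
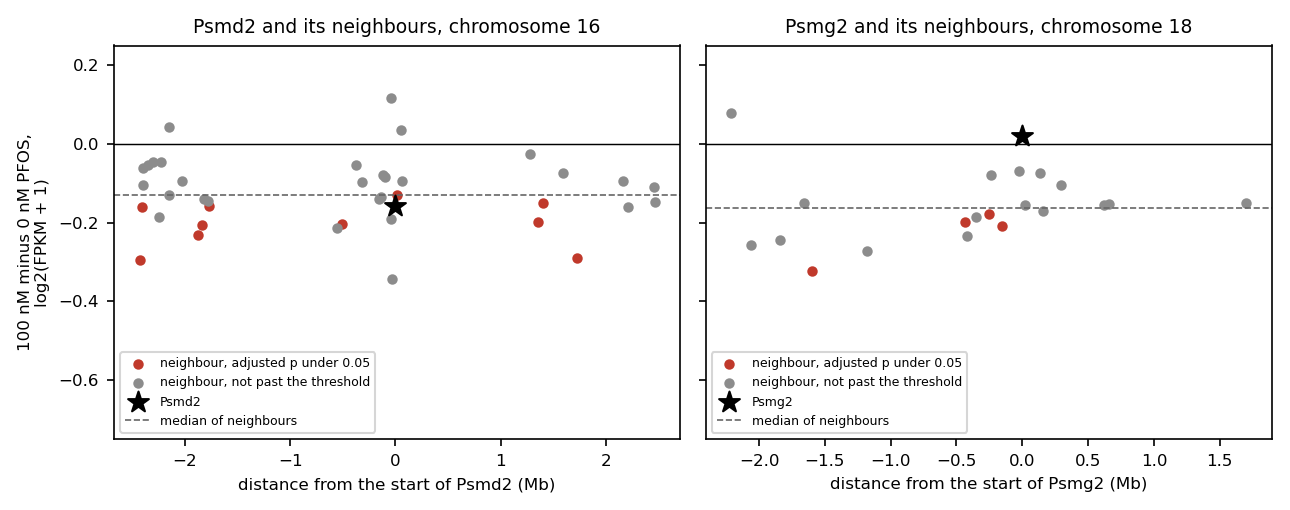
Differences at 100 nM minus 0 nM PFOS on the log2(FPKM + 1) scale (vertical axis) for Psmd2, Psmg2 and their tested protein-coding neighbours, by distance between gene starts in Mb; red points passed the test and the dashed line is the neighbours' median. Psmd2 sits near the median of -0.13 of its neighbours, and Psmg2 at 0.02 sits above the median of -0.16 of its own.

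**Figure D5:**
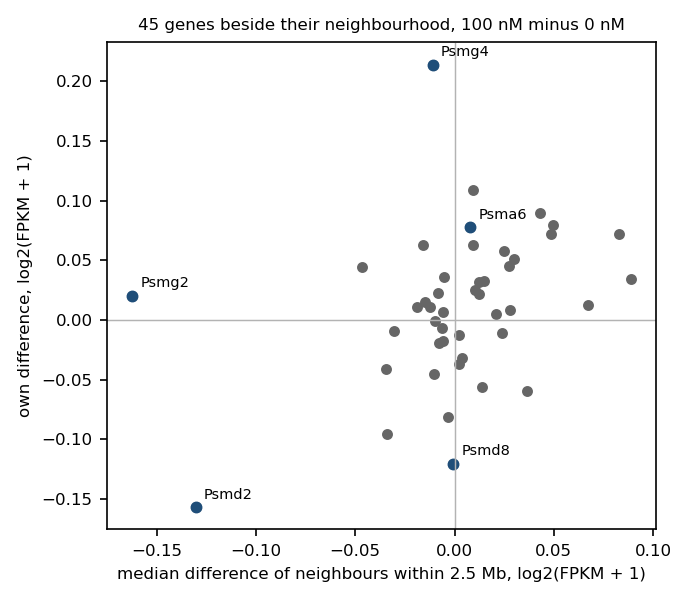
Own difference of each of the 45 members (vertical axis) against the median difference of its neighbours within 2.5 Mb (horizontal axis), both on the log2(FPKM + 1) scale; the 5 blue points carry their gene names. Psmd2 and Psmg2 are the members with a neighbourhood median below -0.1.

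The letters TGACNNNGC, the core of the antioxidant response element that NRF1 and its relative NRF2 bind, were found on either strand in 6 of the 41 windows (14.6%), against 12.4% of all windows. All 6 are shown to let their letters and positions be compared, with the core in capitals and up to 10 bases on each side.
Psmb5, chr14:54618024-54618052, minus strand: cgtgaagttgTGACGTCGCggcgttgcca
Psmb6, chr11:70525338-70525366, plus strand: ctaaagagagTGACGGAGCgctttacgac
Psmc6, chr14:45329587-45329615, minus strand: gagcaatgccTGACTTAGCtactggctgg
Psmd12, chr11:107479278-107479299, minus strand: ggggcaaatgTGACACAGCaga
Psmd9, chr5:123228149-123228177, plus strand: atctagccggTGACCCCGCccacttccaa
Psme4, chr11:30771758-30771786, minus strand: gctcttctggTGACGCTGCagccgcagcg
The core of Psmb5 starts at -47 from the transcription start and that of Psmb6 at -9, both on the strand of the gene. In Psmd9 it starts at -31, while those of Psmc6 and Psmd12 lie on the other strand, farther out, at -227 and -247. The core of Psme4, also on the other strand, spans the start itself. The 6 genes had differences of -0.04 to 0.07, and none passed the test. A match says only that these letters are in the window.

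Genes that control or serve the proteasome, were listed apart from the members. Of 36 tested genes outside the inducible subunits, 0 rose and 3 fell, Maff, Ufd1 and Faf2. That is 8.33% called, against 4.15% of all tested genes, and 11 (30.6%) had an unadjusted p under 0.05, against 20.7% of all tested genes. The NRF1 gene Nfe2l1 had 42.69, 44.18 and 44.83 FPKM at 100 nM, against 45.63, 46.06 and 45.23 FPKM at 0 nM, below the 0 nM range in every library but not past the test (adjusted p = 0.271). Maff, a small partner of NRF1 and NRF2 in DNA binding, had 13.67, 15.39 and 14.03 FPKM at 100 nM, against 16.83, 17.51 and 16.75 FPKM at 0 nM. Its groups did not overlap (difference -0.23, adjusted p = 0.0476). The other 7 genes of the NRF1 list did not pass, among them Nfe2l2, Ddi2 and Ngly1, the protease and the glycanase genes that activate NRF1.

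VCP, a segregase that pulls ubiquitin-tagged proteins out of membranes and complexes for the proteasome, works with Ufd1 and Nploc4. Of the 6 genes of this list 2 fell, against 2.46% of all tested genes called lower. With Vcp, which was higher at 100 nM, 3 had an unadjusted p under 0.05, against 20.7% of all tested genes. Ufd1 had 10.83, 11.20 and 11.59 FPKM at 100 nM, against 12.58, 13.74 and 12.97 FPKM at 0 nM (difference -0.21, adjusted p = 0.0468), and it lies 1.84 Mb from Psmd2 in the same lower stretch of chromosome 16. Faf2, which recruits VCP at the endoplasmic reticulum, had 9.60, 10.01 and 9.40 FPKM at 100 nM, against 10.85, 10.85 and 11.08 FPKM at 0 nM (difference -0.16, adjusted p = 0.0459). Vcp itself had 97.0 ± 0.606 FPKM at 100 nM and 92.3 ± 2.40 FPKM at 0 nM (SD, n = 3 each, adjusted p = 0.153), and its groups did not overlap. The calls of Maff, Ufd1 and Faf2 were lost in 9, 10 and 10 of 18 alternatives.

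Of the 12 tested proteasome parts and partners whose symbols fall outside the pattern, 5 had a higher and 6 a lower mean FPKM at 100 nM, Ube3c had the same mean in both groups, and none passed. They include the 19S subunit genes Adrm1, at 25.9 ± 0.270 FPKM at 100 nM and 25.9 ± 0.538 FPKM at 0 nM, and Sem1, at 12.1 ± 0.515 FPKM at 100 nM and 13.1 ± 0.364 FPKM at 0 nM (SD, n = 3 each; adjusted p = 0.968 and 0.171). Pomp, the maturation factor of the core, averaged 14.5 ± 0.260 FPKM at 100 nM and 14.2 ± 0.545 FPKM at 0 nM (SD, n = 3 each). None of 6 genes for ubiquitin and its activation passed either, with Ubb at 334 ± 5.46 FPKM at 100 nM and 354 ± 4.85 FPKM at 0 nM (SD, n = 3 each; adjusted p = 0.0764). Of the 4 tested ubiquitin shuttle genes 2 had a higher and 2 a lower mean at 100 nM and none passed, the nearest being Ubqln1 at 49.4 ± 2.09 FPKM at 100 nM and 55.1 ± 0.859 FPKM at 0 nM, and Ubqln4 at 35.6 ± 1.43 FPKM at 100 nM and 31.9 ± 0.732 FPKM at 0 nM (SD, n = 3 each; adjusted p = 0.0603 and 0.0654).

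Several members have near-identical copies, which can split or borrow reads. Of the 45 members, 10 shared at least 10% of their 31-base words with transcripts of other genes, and 15 shared none. Psmb5 shared 71.7%, most with the processed pseudogene Gm3375, which was itself listed at 92.1 ± 3.56 FPKM at 100 nM and 93.6 ± 6.04 FPKM at 0 nM (SD, n = 3 each), above Psmb5. Gm13835, a processed pseudogene that holds 16.2% of the words of Psma3, stood at 94.1 ± 2.68 FPKM at 100 nM and 86.0 ± 4.10 FPKM at 0 nM (SD, n = 3 each), against 36.3 ± 1.49 FPKM at 100 nM and 34.98 ± 1.26 FPKM at 0 nM for Psma3. The levels of Psmb5 and Psma3 are therefore uncertain. In the annotation 16 members also overlap a gene on the other strand, Psma6 and Psmd14 among them, and the use of strand in quantification is not stated. On the same strand 10 members overlap another gene, Psmb5 and Psmd14 among them. Psmd2 and Psmd8 overlap none on either strand. With copy and gene summed, Psmb5 and Gm3375 came to 176 ± 6.79 FPKM at 100 nM and 175 ± 8.21 FPKM at 0 nM (SD, n = 3 each). Psma3 and Gm13835 came to 130.3 ± 1.70 FPKM at 100 nM and 121 ± 5.29 FPKM at 0 nM (SD, n = 3 each). The groups did not overlap for this second sum (ratio 1.08) or for Gm13835 alone, which did not pass the test (adjusted p = 0.134 by limma). Psmd2 shared 31.6%, mostly with Gm5422, which was listed at 1.31, 1.18 and 1.44 FPKM for the 100 nM libraries in order and 1.15, 1.14 and 1.38 FPKM for the 0 nM ones, so the sum of both kept a ratio of 0.898. Psma5 shared 58.7%, and Psme2b shared 78.4%, mostly with Psme2. Psme2 and Psme2b together came to 37.1 to 45.2 FPKM at 100 nM and 37.7 to 42.2 FPKM at 0 nM.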

How the data were processed

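Poly(A) RNA of 6 libraries was measured by sequencing of dUTP-marked libraries, per the labels' protocols. The deposited values are FPKM per gene, made by the authors and written to 2 decimals. fastp, HISAT2 and StringTie, and the builds GRCh38 and mm10, are named in the submitters' processing notes. Their versions, the role of each build and strand settings: not given in the sources used here. Of 28418 identifiers 28350 are in GENCODE M21 (GRCm38), which gave symbols and types, and 25603 have the same coordinates there, so coordinates belong to GRCm38.

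No depth is given. In a search for whole reads 21.9% of 1193 low values lay within 0.1 of a whole multiple of the lowest, so reads were not recovered, and precision is known only from replicates.

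Genes averaging 1 FPKM or more were tested with limma 3.58.1 in R 4.3.3 (intensity trend, two-sided, log2(FPKM + 1), 100 nM minus 0 nM) and Benjamini-Hochberg adjustment, after a check on simulated data. Fold changes on this scale understate those of low genes. Intervals are at 95% from the same fit. Members and lists were chosen with earlier results of these data known. Named are called members, the highest and lowest difference per subcomplex, Psmb5 to Psmb10, Psme1, Psme2 and called related genes; further names were picked with their values in view. The gene Paaf1 of the related list was not analysed here, and Ubqln2 was below the filter. Alternatives covered pseudocount, filter, scaling, moderation, replicate block, gene type and left-out libraries. Python 3.11.15, numpy 2.4.6, pandas 2.3.3 and matplotlib 3.10.9 were used.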

Additional observations from a re-analysis of the deposited data

How the results depend on the processing

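Over 18 alternatives 42 of the 45 members were never called, Psmd2 was called in 15, Psmd8 in 4 and Psma6 in 2. The number of members called higher was 1 with a mean of at least 5 FPKM and 1 with protein-coding genes only. The number called lower was 2 in those fits and with median-ratio or upper quartile scaling. It was 0 with the replicate block and without replicate 3 of both groups, and 0 to 1 when 1 library was left out, the 0 coming without replicate 1 at 0 nM. Same-numbered libraries did not deviate together (r = -0.033, -0.053 and 0.007). These values cannot settle whether the libraries were paired by design, which the labels do not state. The replicate block left 11 genes higher and 47 lower in all, without Psmd2 (adjusted p = 0.0772). Over all tested genes the counts were 198 higher and 289 lower. They were 69 and 135 with no filter on low values, 118 and 176 with no intensity trend, 24 and 50 without replicate 3 of both groups, and 38 to 114 and 84 to 175 when 1 library was left out. The median of all members was 0.021 with quantile normalization and 0.0029 to 0.014 with 1 library left out. That of the cap chaperones was -0.0054 with a mean of at least 5 FPKM, which leaves out Psmd9, and that of the lid -0.0020 without replicate 3 of both groups. With 1 library left out the medians ran from 0.0028 to 0.045 for the alpha ring, 0.019 to 0.066 for the beta ring, -0.024 to -0.0017 for the rest of the base and -0.023 to -0.0014 for the lid. Over all alternatives the alpha ring, beta ring and core chaperone medians stayed above 0 and the lid median below 0, while those of the ATPases (-0.0028 to 0.011) and the rest of the base (up to 0.0037) changed sign. No scaling moved the median of all tested genes by more than 0.01. The causes of these shifts were not tested beyond the smaller number of genes or samples that a setting leaves.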
